A study of Mus musculus with 37 samples.

Results

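The organic ion transporters described here are 57 protein-coding mouse genes, taken by name from the 32108 genes of the deposited count table: every Slc22a, Slco, Slc47a, Slc17a and Abcc gene whose symbol goes on with a number. Of the table's genes, 18874 are protein coding, and 1 further gene with such a name was left out because it has another biotype. The rule uses the names alone, and earlier results of these data were known when it was set. A count was present in all 36 podocyte libraries for 34 members, and in none of them for 1, the vesicular glutamate transporter Slc17a6.

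These carriers move drugs, toxins, urate, bile salts, hormones and metabolic waste across cell membranes. In the kidney most of them work in the proximal tubule, where uptake carriers of the Slc22a family on the blood side take up organic anions and cations, and exporters of the Slc47a, Slc17a and Abcc families release them on the urine side, while other members take urate and carnitine back. The Slco family carries larger organic anions such as steroid conjugates and prostaglandins, and several mouse members are known to differ between male and female kidneys.

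RNA on ribosomes of podocytes, the cells that wrap the filter capillaries, was collected by translating ribosome affinity purification (TRAP) from C57BL/6 mice and sequenced. In the type 2 model, eNOS-/- db/db mice (db/db is a mutation of the leptin receptor) were set against eNOS-/- mice at an age of 3 months (5 diabetic and 5 control libraries) and 6 months (3 diabetic and 4 control libraries), so all groups of that model lack endothelial nitric oxide synthase. The type 1 model sets mice given STZ (streptozotocin, a toxin of insulin-producing cells) against mice without STZ after 3 weeks (age 3 months, 5 diabetic and 4 control libraries) and 24 weeks (age 8 months, 5 diabetic and 5 control libraries), so an effect of STZ itself and one of diabetes cannot be told apart. The 1 library of total RNA came from whole kidney of an eNOS-/- mouse aged 3 months. The deposited data are named PodocinCre TRAP. The sources used here do not give the sex of the mice or whether libraries come from separate animals, so the p-values measure the spread between libraries, which may be technical.

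TRAP libraries held 6702120 to 37786025 counts and the kidney library 28033680. The labelled cell type showed in its markers: all 12 podocyte markers were higher in each of the 5 TRAP libraries of 3-month eNOS-/- controls than in the kidney library, with a median ratio of 66.8. All 30 proximal tubule markers were nevertheless present, at 0.400 of the kidney level in the median. The members are thus read here in libraries that hold podocyte and tubule RNA together, and in such bulk samples fewer cells of a type and less RNA per cell cannot be told apart. In the type 2 model at 3 months, diabetic libraries 4 and 5 stood apart from the other 3, with summed macrophage markers of 288 and 137 CPM (counts scaled to the library's total) against 39.8 to 52.3 in the others. Other groups were uneven too. In 3-week STZ libraries 1 to 5, summed podocyte markers were 12166, 13531, 12184, 23536 and 22253 CPM. In 24-week STZ libraries they were 10344, 14358, 6136, 27801 and 24589 CPM. Their controls ranged from 11662 to 28367 and from 11117 to 29791 CPM. At 6 months the markers summed to 11076, 18317 and 4197 CPM in diabetic libraries, against 26858 to 31649 CPM in controls. Diabetic library 3 there had the lowest total, 6702120 counts.

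Upstream sequence is shown for 6 members called lower in at least 2 diabetic comparisons, because 4 of them (Slc22a28, Slc22a30, Slc22a19 and Slc22a26) are neighbours on chromosome 19 and can be compared line by line. Each line holds the 120 bases from 180 to 61 bases before the annotated start, 5′ to 3′ on the gene's strand, from RefSeq on GRCm38.p6. Capitals mark GTTAAC, a half-site of the liver and kidney factor HNF1.
Slc22a28 (chr19:8132043-8132162, minus strand): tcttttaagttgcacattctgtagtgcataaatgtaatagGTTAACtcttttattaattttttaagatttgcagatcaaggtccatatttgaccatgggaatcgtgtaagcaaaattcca
Slc22a30 (chr19:8405166-8405285, minus strand): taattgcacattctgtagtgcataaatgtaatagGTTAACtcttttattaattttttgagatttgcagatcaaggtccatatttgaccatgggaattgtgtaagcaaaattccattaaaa
Slc22a19 (chr19:7711371-7711490, minus strand): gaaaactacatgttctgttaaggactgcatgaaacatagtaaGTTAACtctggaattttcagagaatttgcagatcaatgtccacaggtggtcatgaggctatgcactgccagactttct
Slc22a26 (chr19:7802728-7802847, minus strand): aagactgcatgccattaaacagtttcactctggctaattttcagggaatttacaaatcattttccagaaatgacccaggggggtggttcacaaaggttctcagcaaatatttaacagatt
Slc17a3 (chr13:23839254-23839373, plus strand): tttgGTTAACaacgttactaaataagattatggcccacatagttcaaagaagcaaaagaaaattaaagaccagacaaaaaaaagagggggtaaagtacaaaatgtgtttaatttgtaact
Slco1a1 (chr6:141947023-141947142, minus strand): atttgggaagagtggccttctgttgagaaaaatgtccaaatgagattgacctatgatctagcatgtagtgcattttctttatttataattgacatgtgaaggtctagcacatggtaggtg

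Slc22a28 and Slc22a30 were identical at 93.0% of the aligned columns over the 250 bases before their starts, Slc22a28 and Slc22a19 at 60.8%, and Slc22a28 and Slc22a26 at 49.3%. Over those 250 bases, GTTAAC, which reads the same on both strands, was found for 7 of the 45 members with a RefSeq window (15.6%) and for 2.98% of 27025 genes. It was found for 4 of 18 members called lower in diabetes (Slc22a28, Slc22a30, Slc22a19 and Slc17a3) and for 0 of 5 called higher. The motif was chosen after the values were seen, and a match is a description of the letters only. Slc22a28 and Slc22a30 have nearly the same upstream sequence, so their matches cannot be counted as separate. The other motifs were searched on both strands: the androgen receptor half-site AGAACA was found for 8 of 45 members (5 of 18 called lower and 2 of 5 called higher) against 18.2% of all genes, the antioxidant response element TGANNNNGC for 16 of 45 (4 of 18 and 4 of 5) against 38.7%, and the HNF4 core CAAAGTCCA for 0 of 45 against 0.451%. Slc22a28 shares 53.3% of its stretches of 50 bases with Slc22a30, which shares 31.0% of its own, so reads of this pair may be split or lost in counting and their separate values are uncertain. The same holds for the carnitine carrier Slc22a5, which shares 26.1% with Slc22a21, and for Slc22a29, which shares 23.0% with Slc22a27.

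Per length, the urate carrier Slc22a12 (URAT1) had the highest level of all members. Its mean deposited FPKM (fragments scaled to gene length and library size) over the 36 TRAP libraries was 153. Other high levels were those of the anion uptake carrier Slc22a6 (OAT1) at 64.7, the cation exporter Slc47a1 (MATE1) at 46.8, Slc22a18 at 46.1, the phosphate and urate carrier Slc17a1 at 44.2, Slc22a8 (OAT3) at 36.2 and the conjugate exporter Abcc2 (MRP2) at 24.999. In the kidney library Slc22a12 had 289 FPKM and Slc22a6 had 202 FPKM. The order moved with the group. Slc22a12 led in all 8 TRAP groups and stood at 89.6 ± 36.7 FPKM in 3-month eNOS-/- db/db libraries, against 241 ± 39.9 in their controls (SD, n = 5 each). Slc47a1 and Slc22a18 stood at 52.4 ± 9.56 and 55.4 ± 5.09 FPKM in those controls. At the low end, 21 members averaged under 1 FPKM and 14 of these under 0.1.

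**Figure D1:**
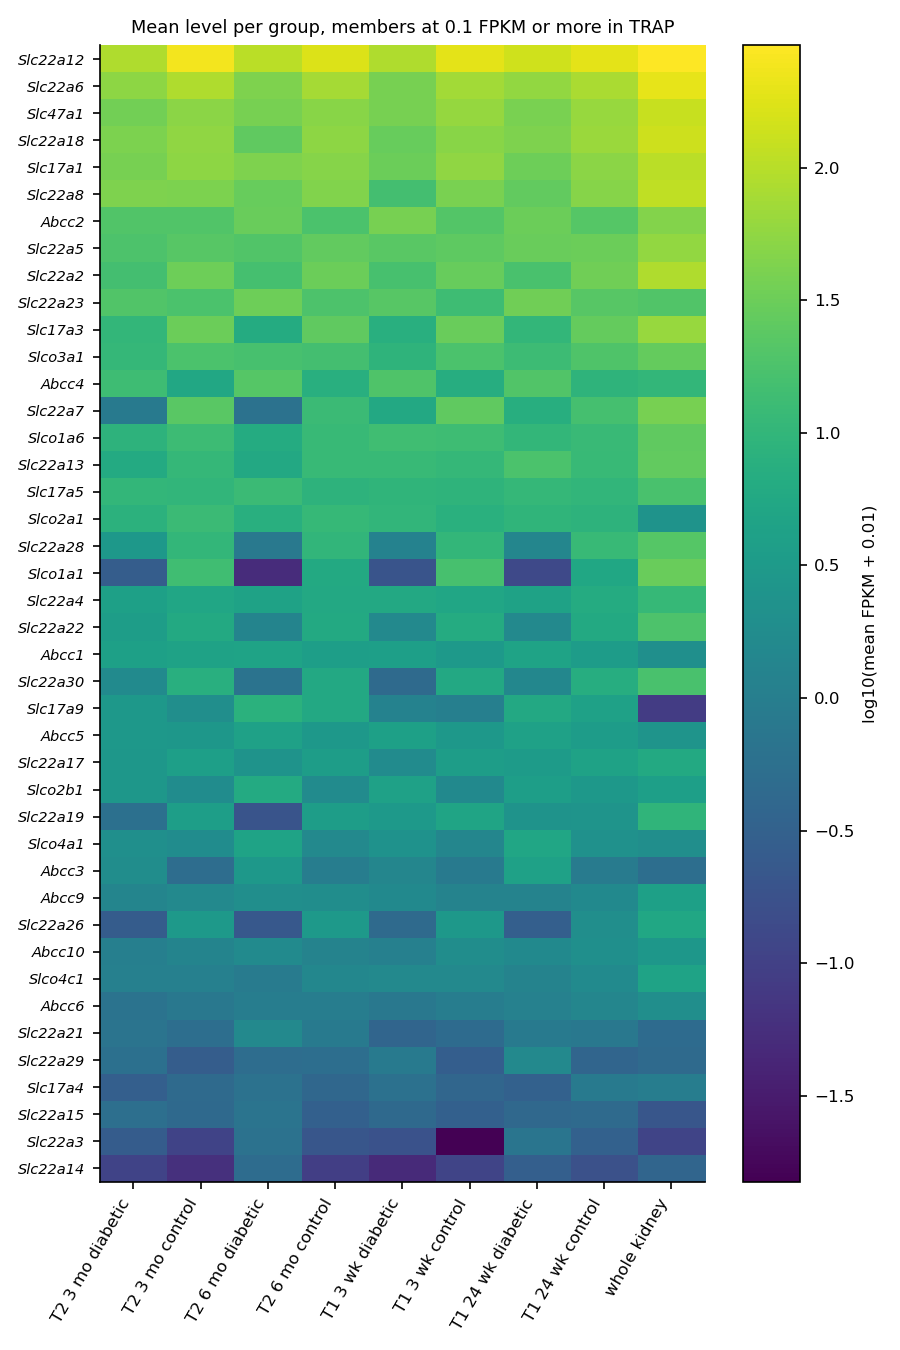
Mean deposited FPKM of each group (columns, each diabetic group left of its control, whole kidney last) for members at 0.1 FPKM or more over the TRAP libraries (rows, highest first), on a log10 scale with 0.01 added. Slc22a12 is brightest in every column, and Slco1a1 turns dark in all 4 diabetic groups.

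Most members were lower in TRAP RNA than in whole kidney, as tubule markers were. The TRAP libraries of 3-month eNOS-/- controls and the kidney library, of the same genotype and age, were compared as a ratio of CPM plus 0.5, with no test because there is 1 kidney library. TRAP RNA is bound to ribosomes and the kidney RNA is total, so the kind of RNA and the cells cannot be told apart. Of 40 members at 1 CPM or more in either, 34 had a ratio below 1, and 30 were below the kidney value in all 5 TRAP libraries. Of 14306 genes of the table at that level, 7037 had a ratio below 1, and 4895 were below kidney in all 5. The median ratio of the members was 0.493, against 1.01 over all genes at that level. The lowest ratios were those of the basolateral anion carrier Slco4c1 (0.253), the prostaglandin carrier Slc22a22 (0.332), Slc22a8 (0.374), the cation carrier Slc22a2 (OCT2, 0.376) and the carnitine carrier Slc22a5 (OCTN2, 0.377). For Slco4c1 the 5 TRAP libraries held 5.39 ± 0.469 CPM (SD) and the kidney library 22.8 CPM, with an exact Poisson interval of 21.03 to 24.6 CPM that covers counting error only.

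Other members were higher in TRAP RNA than in kidney. All 5 TRAP libraries were above the kidney library for 5 members: the vesicular nucleotide carrier Slc17a9 (ratio 9.08), the prostaglandin transporter Slco2a1 (5.18), the exporter Abcc1 (MRP1, 2.20), the zwitterion carrier Slc22a15 (1.91) and the exporter Abcc5 (1.13). Of the 14306 genes at 1 CPM or more, 5000 were above the kidney library in all 5, a larger share than among the 40 members. Slco2a1 had 206, 180, 148, 140 and 170 CPM in the TRAP libraries against 32.2 CPM in kidney. Slc17a9 had 3.36, 5.68, 7.39, 5.35 and 9.76 CPM in the TRAP libraries against 0.250 CPM in kidney, where the value rests on 7 counts. For Abcc5 the TRAP libraries held 26.5 to 31.8 CPM. Their lower end lay inside the Poisson interval of the kidney value, 25.6 CPM (23.8 to 27.6). Slc22a12, at 439 to 657 CPM in TRAP, reached the kidney value of 649 CPM in 1 TRAP library, unlike Slc22a6, at 304 to 414 CPM against 813 CPM.

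**Figure D2:**
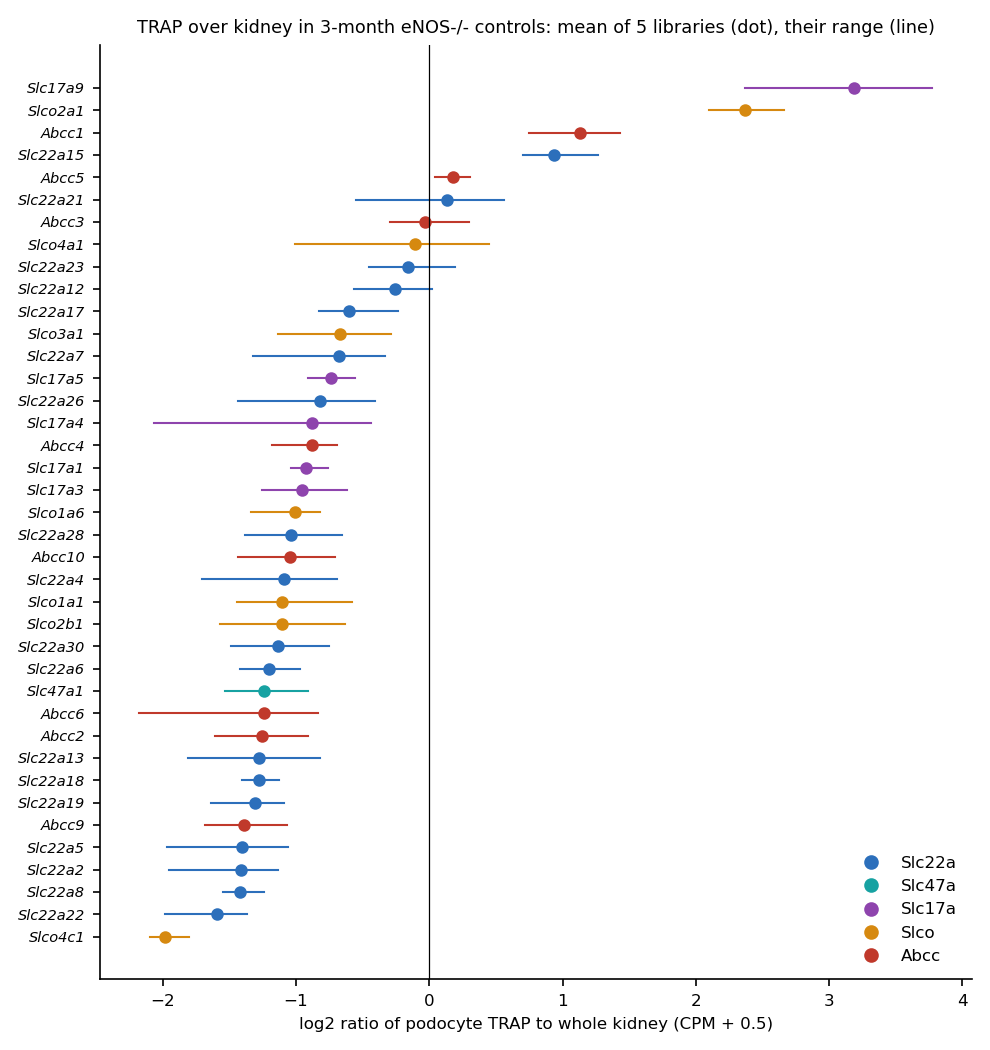
Ratio of TRAP to whole kidney (log2 of CPM plus 0.5) for members at 1 CPM or more, coloured by family; dots are means of 5 control TRAP libraries and lines their range. Slc17a9, Slco2a1, Abcc1, Slc22a15 and Abcc5 lie wholly right of 0, and most other members lie wholly left of it.

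The diabetic comparisons ask which carriers changed in each model and at each time. A member counts as called at an adjusted p below 0.05 in edgeR's quasi-likelihood test with Benjamini-Hochberg adjustment over all genes of the fit. In the type 2 model at 3 months, 14 of the 44 members tested were lower and 2 higher, where 1.96% of all 17180 genes tested were called lower and 2.03% higher. At 6 months 19 were lower and 5 higher, where 11.7% and 11.2% of all genes were called. In the type 1 model at 3 weeks, 15 of 45 were lower and 2 higher, against 2.72% lower and 3.78% higher among 16279 genes. At 24 weeks 4 were lower and 1 higher, against 0.448% in each direction. The median log2 fold change of the members tested was -0.37, -0.35, -0.28 and -0.26 in these 4 comparisons, and that of all genes lay between -0.01 and 0.04. Without diabetic libraries 4 and 5, 13 members were called at 3 months, 11 of them lower, and the calls of Slc22a6, Slco2a1 and Slc22a28 were lost. The counts at 24 weeks depended on single libraries, with 3 calls without diabetic library 3 and 8 without diabetic library 4.

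In all, 27 members were called at least once, 21 of them lower and 6 higher, and none was called in both directions. The share of all genes called at least once was not counted, and at 6 months alone 11.7% were called lower and 11.2% higher. In every comparison 4 members were lower: Slco1a1, the urate and anion exporter Slc17a3 (NPT4), Slc22a28 and Slc22a2. At 24 weeks, the comparison with the fewest calls, 0.448% of all genes were called lower. Another 11 members did not pass the filter on low counts in either model, among them the brain glutamate and liver carriers Slc17a7 and Slco1b2, and 19 were tested and never called.

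**Figure D3:**
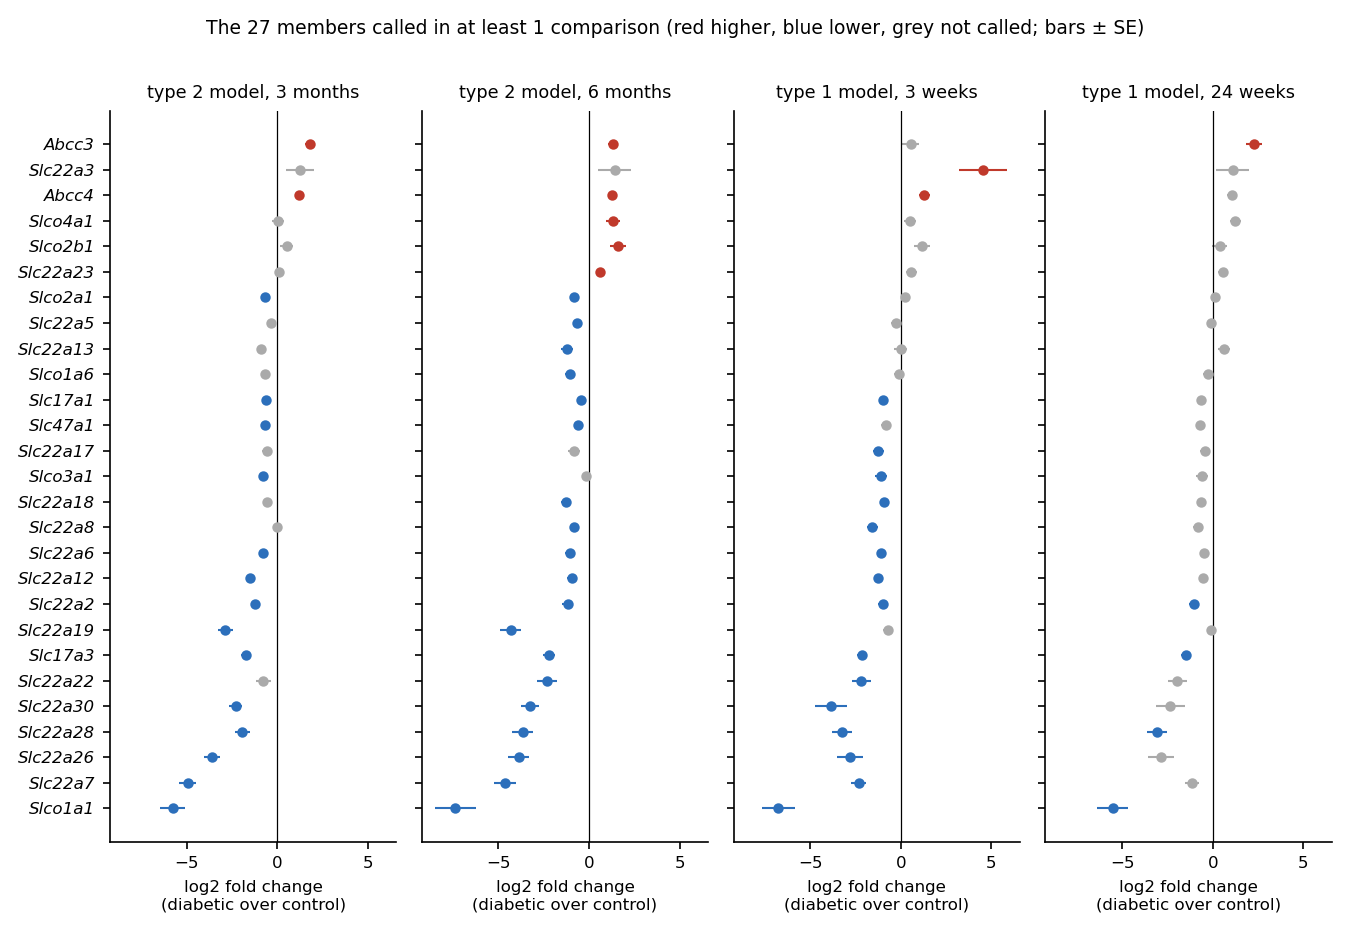
Log2 fold change of diabetic over control libraries with its standard error for the 27 members called in at least 1 comparison (rows, ordered by median), in 4 panels. Slco1a1, Slc22a7, Slc22a26, Slc22a28 and Slc22a30 have the lowest medians over the panels, and Abcc3 and Abcc4 lie right of 0 in every panel.

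The anion and urate carriers of Slc22a take up waste and drugs from blood or take urate back from the tubule. Of their 11 members tested, 7 were lower in the type 2 model at 3 months, 10 at 6 months, 8 in the type 1 model at 3 weeks and 1 at 24 weeks, and none was higher. Of all genes tested, 1.96%, 11.7%, 2.72% and 0.448% were called lower in these comparisons. Slc22a7 (OAT2), a carrier of nucleobases and prostaglandins, had 1.55, 0.207, 1.75, 3.91 and 0.807 CPM in 3-month eNOS-/- db/db libraries, against 32.4, 29.8, 59.6, 53.3 and 59.5 CPM in their controls. At 6 months it had 1.30, 0.738 and 1.64 CPM in diabetic libraries, against 11.2, 26.8, 30.1 and 31.9 CPM in controls. Every type 2 diabetic library thus lay far below every control. The log2 fold changes in edgeR's test were -4.93 ± 0.48 (SE, adjusted p = 1.118e-05) and -4.64 ± 0.63 (adjusted p = 0.0001766). In the STZ model 3-week diabetic libraries held 5.15 to 15.3 CPM against 38.7 to 65.9 CPM in controls (-2.31 ± 0.41, adjusted p = 0.001882), and at 24 weeks the 8.58 to 25.3 CPM of diabetic libraries overlapped the 11.3 to 48.5 CPM of controls (-1.16 ± 0.39, adjusted p = 0.1991).

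Slc22a19 (OAT5), an anion carrier of the urine-side membrane, was called in the type 2 model only, and the difference between the models passed its own test. It had 4.51, 1.09, 5.32, 2.62 and 1.76 CPM in 3-month eNOS-/- db/db libraries, against 16.4, 19.4, 24.2, 21.1 and 22.7 CPM in controls (log2 fold change -2.86 ± 0.42, adjusted p = 0.0004009 in edgeR's test). At 6 months it had 1.48, 1.47 and 0 CPM in diabetic libraries, against 11.0, 18.3, 31.1 and 18.9 CPM in controls (-4.33 ± 0.59, adjusted p = 0.0001576). In the STZ model the libraries were close or overlapped: 13.8 to 18.9 CPM in diabetic libraries against 19.005 to 31.9 CPM in controls at 3 weeks (-0.73, adjusted p = 0.0646), and 8.87 to 17.3 CPM in diabetic libraries against 10.1 to 17.1 CPM in controls at 24 weeks (-0.12, adjusted p = 0.9279). Its neighbours Slc22a28, Slc22a30 and Slc22a26 were called in both models. Slc22a28 had 7.87, 2.48, 9.63, 4.36 and 4.64 CPM in 3-month eNOS-/- db/db libraries against 16.0 to 27.0 CPM in controls, and 2.15, 1.23, 1.32, 2.88 and 4.12 CPM in 3-week STZ libraries against 14.1 to 24.7 CPM in controls. It was lower in all 4 comparisons, by log2 fold changes of -1.92, -3.66, -3.24 and -3.06, with no overlap between diabetic and control libraries in any of them.

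Slc22a30 and Slc22a26, further rodent relatives of the anion carriers, were lower in the same comparisons except the last. Slc22a30 had log2 fold changes of -2.30, -3.28 and -3.85 at 3 months, 6 months and 3 weeks. At 24 weeks it had 15.7, 1.09, 0.307, 6.49 and 0.767 CPM in STZ libraries against 18.3, 21.7, 35.2, 31.8 and 12.4 CPM in controls, a wide spread that left it uncalled (-2.34 ± 0.80, adjusted p = 0.2168). Slc22a26 had log2 fold changes of -3.61, -3.89 and -2.79 in these, and stood at -2.86 with an adjusted p of 0.05338 at 24 weeks. Slc22a22, known from mouse kidney as a prostaglandin carrier, was lower at 6 months (-2.32) and at 3 weeks (-2.18). At 3 weeks, Slc22a26 was not called without control library 3 or diabetic library 3, nor Slc22a22 without diabetic library 2 or 3.

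**Figure D4:**
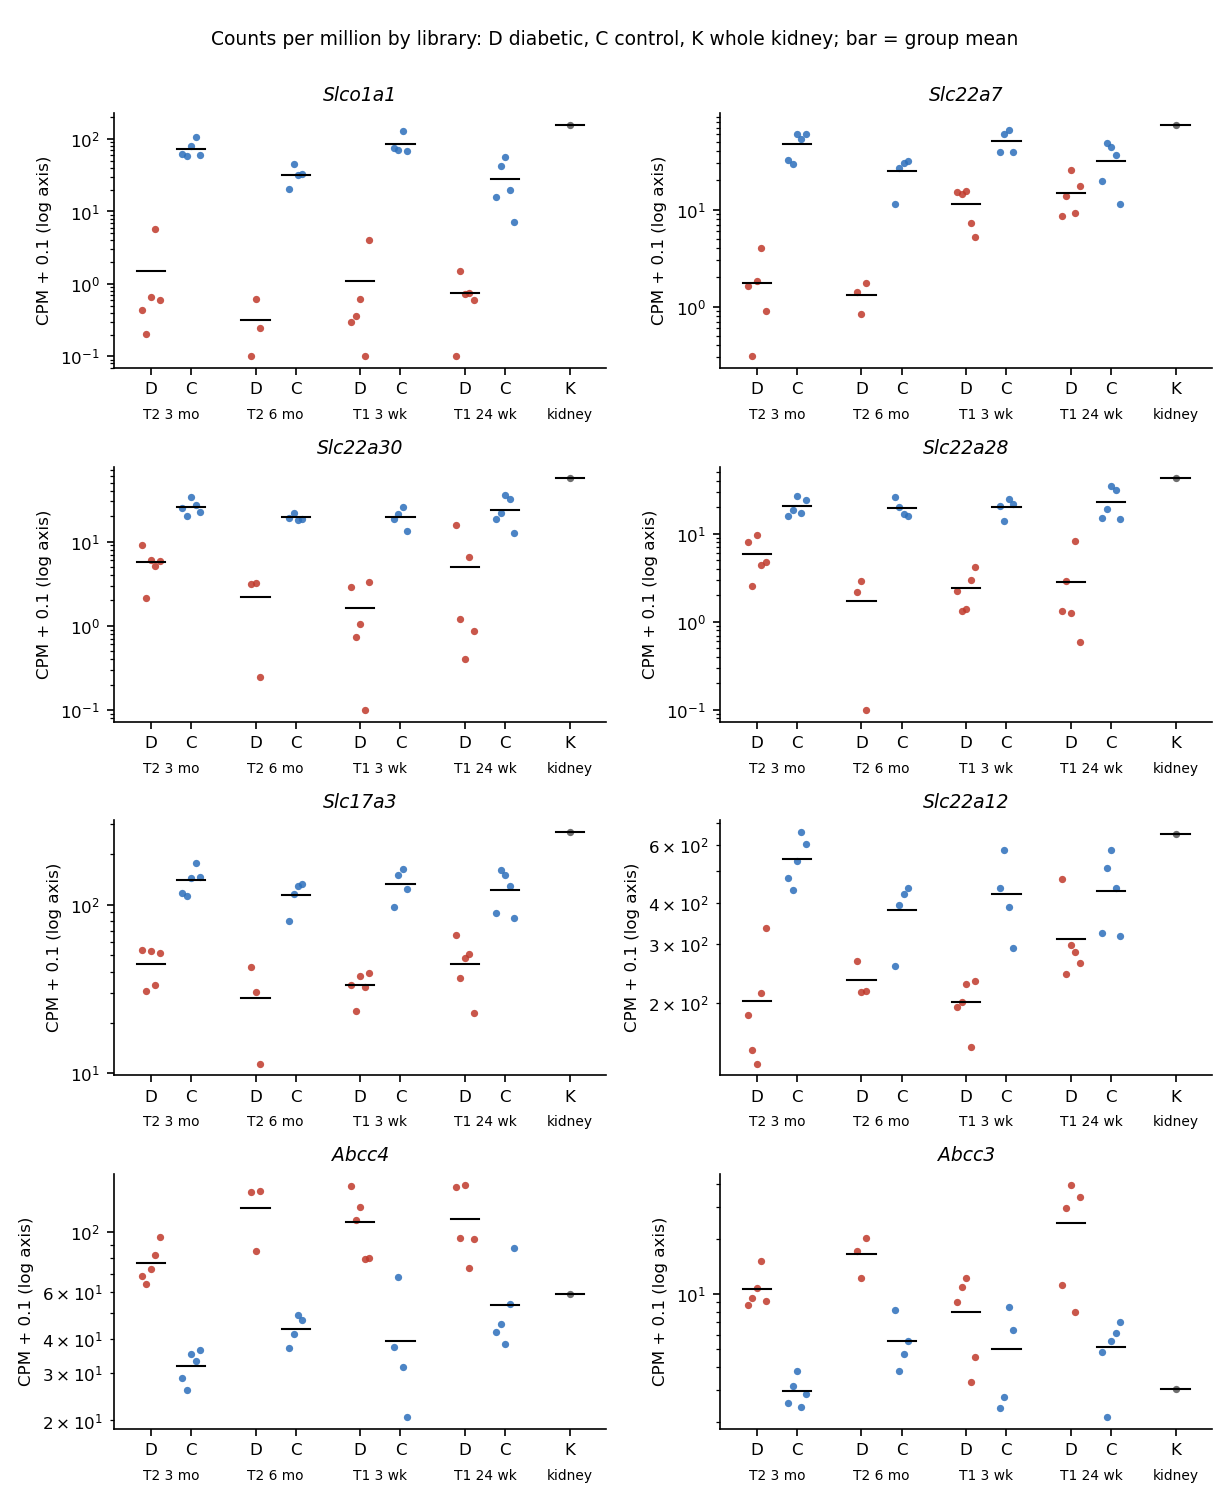
CPM of 8 members in each library (log axis, 0.1 added), diabetic (D, red) left of control (C, blue) in each model and time, with the group mean as a bar and whole kidney (K) at the right. Slco1a1 and Slc22a7 are far below their controls in the type 2 model, and Abcc4 is above all of its controls except for an overlap at 24 weeks.

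The best known kidney carriers of this branch stood at higher levels and had smaller log2 fold changes. Slc22a12 had 183, 144, 131, 213 and 337 CPM in 3-month eNOS-/- db/db libraries, against 477, 439, 536, 657 and 605 CPM in controls (log2 fold change -1.51 ± 0.23, adjusted p = 0.0005141 in edgeR's test). It was also lower at 6 months (-0.93, a call lost without control library 4 or diabetic library 3) and at 3 weeks (-1.24), and not called at 24 weeks (-0.52, adjusted p = 0.4135). Its span overlaps Nrxn2 on the other strand, and the sources used here do not say whether reads were counted by strand. Slc22a6 was lower at 3 months (-0.78), 6 months (-1.05) and 3 weeks (-1.08), with no overlap between diabetic and control libraries in these. The 3-month call was lost when any of 7 of the 10 libraries was left out, with log2 fold changes of -0.91 to -0.63. Slc22a8, its close relative and neighbour, had 156, 134, 225, 89.9 and 147 CPM in 3-month eNOS-/- db/db libraries, which spanned the 131 to 162 CPM of their controls (-0.02 ± 0.20, adjusted p = 0.9789). In 3-week STZ libraries it had 87.9, 22.3, 42.2, 47.5 and 58.3 CPM, against 132, 195, 125 and 111 CPM in controls (-1.58 ± 0.30, adjusted p = 0.002765), and it was lower at 6 months too (-0.81), a call lost without any 1 of 3 libraries (-1.09 to -0.58). Slc22a13 (OAT10), a nicotinate and urate carrier, was called at 6 months only (-1.22); its span lies within that of Slc22a14 on the same strand.

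Among the cation carriers, Slc22a2 and the exporter Slc47a1 fell. Slc22a2, the main cation uptake carrier of the tubule's blood side, had 29.3, 20.2, 39.1, 30.1 and 40.2 CPM in 3-month eNOS-/- db/db libraries against 47.9, 57.3, 79.7, 84.8 and 80.7 CPM in controls. Its log2 fold changes were -1.23, -1.18, -0.97 and -1.06 (adjusted p = 0.004221, 0.008059, 0.02968 and 0.04643 in edgeR's test), and at 3 weeks its libraries overlapped. Leaving out single libraries ended the call in 5 of 9 cases at 3 weeks and in 8 of 10 at 24 weeks, with log2 fold changes of -1.09 to -0.77 and -1.18 to -0.85. Slc47a1, which passes cations on into urine, was lower at 3 months (-0.68) and 6 months (-0.59), and stood at -0.82 (adjusted p = 0.05683) at 3 weeks. Its 3-month call was lost without control library 4, and its 6-month call without any 1 of 4 libraries (-0.72 to -0.46). The extraneuronal amine carrier Slc22a3 (OCT3) was called higher at 3 weeks, from 20, 9, 22, 0 and 5 counts in STZ libraries against 0, 0, 1 and 0 counts in controls. The summed counts, scaled to library totals, were 41.8 times as high in STZ libraries, with an exact 95% counting interval of 7.20 to 1680, and 1 STZ library lay at 0 with the controls. The call was lost when any of 6 of the 9 libraries was left out, and both limma fits of log2 FPKM did not make it.

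The carnitine carriers and the less known Slc22a members had few calls. Of the 4 carnitine and zwitterion carriers tested, Slc22a5 alone was called, at 6 months, with 66.6, 59.4 and 57.3 CPM in diabetic libraries against 84.5, 82.8, 98.2 and 66.9 CPM in controls (-0.68). This call was lost without any 1 of 3 libraries (-0.79 to -0.60). Slc22a18, a carrier-like protein of an imprinted region, was lower at 6 months (-1.30) and 3 weeks (-0.94), the second call being lost without control library 2 or diabetic library 2. Slc22a17, a receptor for the iron-binding protein lipocalin 2, fell by 1.24 on the log2 scale at 3 weeks. The orphan member Slc22a23 went the other way at 6 months, with 265, 181 and 193 CPM in eNOS-/- db/db libraries against 106, 115, 107 and 147 CPM in controls (0.61 ± 0.20, adjusted p = 0.03766). Without any 1 of 4 libraries it was not called (0.41 to 0.70).

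Slco1a1, a carrier of steroid conjugates and bile salts in the urine-side membrane of the mouse tubule, had the lowest fold change of all members in each comparison. It had 0.336, 0.104, 0.556, 5.62 and 0.504 CPM in 3-month eNOS-/- db/db libraries, against 62.0, 57.9, 80.7, 106 and 60.8 CPM in controls. At 6 months the values were 0, 0.511 and 0.149 CPM in diabetic libraries, against 20.1, 44.5, 31.6 and 32.6 CPM in controls. After 3 weeks of STZ they were 0.203, 0.258, 0.527, 0 and 3.93 CPM in STZ libraries, against 75.2, 69.8, 128 and 67.5 CPM in controls. Diabetic and control libraries did not overlap in any comparison. At 24 weeks STZ libraries had 0, 1.42, 0.614, 0.655 and 0.493 CPM, against 15.9, 42.4, 56.6, 19.6 and 6.99 CPM in controls. The log2 fold changes were -5.78 ± 0.71, -7.38 ± 1.14, -6.76 ± 0.90 and -5.52 ± 0.87 (adjusted p = 0.0001403, 0.0005761, 0.0002463 and 0.003321 in edgeR's test). Most diabetic values rest on few counts, as 3 counts make 0.448 CPM in 6-month diabetic library 3, so the sizes are uncertain. The 6-month value was -9.84 to -6.54 with single libraries left out and -9.46 to -2.73 in other settings, and was called in each.

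Other Slco members had smaller log2 fold changes, in both directions. The prostaglandin transporter Slco2a1, higher in TRAP RNA than in the kidney library, fell in the type 2 model. It had 119, 105, 145, 113 and 89.4 CPM in 3-month diabetic libraries against 206, 180, 148, 140 and 170 CPM in controls (-0.65 ± 0.14, adjusted p = 0.009644 in edgeR's test), and a further call at 6 months (-0.84). The 3-month call was lost in both limma fits of log2 FPKM and without diabetic libraries 4 and 5. It was not called in the STZ model (0.24 and 0.10). At 6 months 11 of 12 podocyte markers were called lower as well, and 0 of 12 at 3 months. Summed podocyte markers at 3 months were nevertheless 18218 and 17893 CPM in diabetic libraries 4 and 5, against 30398 to 32671 CPM in the other 3. Their controls ranged from 25422 to 41060 CPM, and the part of this in the values of Slco2a1 was not tested. Slco3a1 was lower at 3 months (-0.80) and 3 weeks (-1.11), and Slco1a6 at 6 months (-1.03). The calls of Slco3a1 were lost when any of 7 of 10 libraries was left out at 3 months and any of 8 of 9 at 3 weeks (-1.22 to -0.83). Slco2b1, a carrier of steroid sulfates, rose at 6 months to 43.8, 14.8 and 47.9 CPM in diabetic libraries, against 6.50, 12.1, 9.67 and 11.0 CPM in controls (1.60 ± 0.45, adjusted p = 0.01629), a call lost without diabetic library 1 or 3. In 3-month diabetic libraries 4 and 5 Slco2b1 stood at 31.2 and 21.7 CPM, against 6.62 to 9.62 CPM in the other 3. This pair also had the highest summed macrophage, injured tubule, mesangial and parietal markers of its group, whose part was not tested. Slco4a1, a thyroid hormone carrier, was called higher at 6 months (1.32), where diabetic library 2, at 8.91 CPM, lay within the controls' range of 4.68 to 10.3 CPM. It was not called without any 1 of 4 libraries (1.05 to 1.69).

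Of the Slc17a carriers, Slc17a3 and Slc17a1 of the kidney brush border fell, and no other member was called. Slc17a3, which releases urate and drugs into urine, had 53.4, 30.5, 53.1, 33.3 and 51.7 CPM in 3-month eNOS-/- db/db libraries, against 117, 112, 144, 176 and 146 CPM in controls. After 24 weeks of STZ it had 65.7, 36.4, 47.9, 50.6 and 22.8 CPM, against 89.6, 161, 150, 128 and 83.3 CPM in controls. Diabetic libraries lay below all controls in each comparison, with log2 fold changes of -1.74 ± 0.27, -2.22 ± 0.34, -2.12 ± 0.28 and -1.50 ± 0.26 (adjusted p = 0.000801, 0.0004354, 0.0001507 and 0.004391 in edgeR's test). Its neighbour Slc17a1 (NPT1) was lower in the first 3 comparisons (-0.60, -0.43 and -1.01) and stood at -0.66 (adjusted p = 0.05748) at 24 weeks. Its 6-month call was lost without any 1 of 5 of the 7 libraries, and 1 of 10 other alternatives kept it. Slc17a9 varied widely, from 1.33 to 59.5 CPM over the TRAP libraries, with no call.

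The Abcc exporters held 2 of the 6 members that rose and none that fell. Abcc4 (MRP4), which exports urate, cyclic nucleotides and drugs, had 68.5, 64.3, 73.1, 82.0 and 96.2 CPM in 3-month eNOS-/- db/db libraries, against 28.7, 25.8, 35.2, 33.2 and 36.3 CPM in controls. At 6 months it had 141, 85.4 and 142 CPM in diabetic libraries against 37.2, 41.7, 49.0 and 47.2 CPM in controls, and at 3 weeks 149, 111, 124, 79.5 and 80.0 CPM in STZ libraries against 37.2, 67.9, 31.6 and 20.5 CPM in controls. All diabetic libraries were above all controls in these 3 comparisons. The log2 fold changes were 1.19 ± 0.16, 1.25 ± 0.18 and 1.29 ± 0.32 (adjusted p = 0.0001038, 0.0002472 and 0.01646 in edgeR's test), and at 24 weeks it stood at 1.06 ± 0.29 (adjusted p = 0.09209). Abcc3 (MRP3), an exporter of glucuronides and bile salts, had 8.61, 9.47, 10.7, 15.1 and 9.02 CPM in 3-month diabetic libraries against 2.43, 3.05, 3.72, 2.30 and 2.76 CPM in controls. Its log2 fold changes were 1.80 ± 0.24, 1.34 ± 0.28 and 2.29 ± 0.45 at 3 months, 6 months and 24 weeks (adjusted p = 0.0001332, 0.003002 and 0.01298), and its libraries overlapped at 3 weeks (0.55). The 24-week call was lost without diabetic library 3. Abcc2, the Abcc member with the highest level per length, had log2 fold changes of -0.07, 0.50, 0.74 and 0.57 and was not called.

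The change of an effect with time was tested within each model by edgeR's test, and no member was called, nor any gene of the fits (0% of 17180 and 0% of 16279). At an unadjusted p under 0.05 stood 7 members in the type 2 model and 4 in the type 1 model, where 18.9% and 6.71% of all genes did. DESeq2 and both limma fits called 0 members too, and 2 were called in the type 2 model without 6-month diabetic library 2. Between the older and the younger control libraries, edgeR called no member and no gene (0%) in the type 2 model, with 3 members and 3.14% of all genes at an unadjusted p under 0.05 and 0 members called by DESeq2. In the type 1 model 2 of 45 were, where 3.7% of all genes were: Slc22a19 was lower at 24 weeks, with 10.1, 17.1, 11.5, 16.3 and 12.6 CPM against 23.8, 27.0, 31.9 and 19.005 CPM at 3 weeks (-0.99 ± 0.24, adjusted p = 0.02027 in edgeR's test). Slc22a3 was higher, on 93 counts in all at 24 weeks against 1 count at 3 weeks. Each of these calls was lost in 4 of 9 fits that left out 1 library.

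The difference between the diabetic effects of the models was tested in a fit of all 36 TRAP libraries, which tested 48 members, at the early times (0.94% of 18511 genes called) and the late times (0.438%). Slc22a19 had a lower effect in the type 2 model than in the type 1 model at both, with differences of -2.15 ± 0.47 and -4.22 ± 0.56 on the log2 scale (adjusted p = 0.01923 and 0.0001136 in edgeR's test). So did Slc22a7, with differences of -2.63 ± 0.64 and -3.49 ± 0.75 (adjusted p = 0.03626 and 0.04037). Slc22a8 went the other way at the early times, with a difference of 1.53 ± 0.37 (adjusted p = 0.03529). It was called lower in the STZ model and not in the type 2 model at that time. Slc22a19 was called at both times whichever library was left out. The call of Slc22a8 was lost in 12 of the 19 fits that left out 1 library, and that of Slc22a7 in 12 of 19 at the early times and 7 of 17 at the late times. The eNOS deletion, STZ and, at the late times, age differ between the models together with the kind of diabetes, and cannot be told apart.

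Markers of tubule cells moved with these changes. The 30 proximal tubule markers summed to 7226 to 16254 CPM in 3-month eNOS-/- db/db libraries against 15580 to 21885 CPM in controls, and to 5997 to 13267 CPM in diabetic libraries against 16093 to 19962 CPM in controls at 6 months. In the STZ model they summed to 8330 to 16722 CPM in diabetic libraries against 17670 to 26745 CPM in controls at 3 weeks, and to 9908 to 16273 CPM in diabetic libraries against 16010 to 23107 CPM in controls at 24 weeks. Of the 30, the test called 7, 18, 14 and 5 lower in the order of the comparisons, and 1 higher in each, the vitamin D binding protein Gc. None of the 30 was at 0 in any group. The median log2 fold change of that list was -0.39, -1.21, -0.75 and -0.32, and that of the members was -0.37, -0.35, -0.28 and -0.26. Of 10 markers of the first tubule segments, 0, 2, 3 and 1 were lower, and of 9 markers of the last segment, 6, 7, 6 and 4 were. Of 8 injured tubule markers, 6, 8, 6 and 2 were called higher, with the secreted phosphoprotein Spp1 at 2.66, 2.98, 2.49 and 1.46. Over all genes, 1.96%, 11.7%, 2.72% and 0.448% were called lower and 2.03%, 11.2%, 3.78% and 0.448% higher in these comparisons.

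With the mean log2 CPM of the 30 tubule markers as a covariate, 12 members were called at 3 months, 7 at 6 months, 8 at 3 weeks and 4 at 24 weeks, and 12, 7, 5 and 1 of these were among the calls without it. Slco1a1, Slc17a3 and Abcc4 were called with and without the covariate at 3 months, 6 months and 3 weeks, as were Slc22a7, Slc22a19 and Slc22a26 at 3 and 6 months. At 24 weeks Abcc3 was the call that remained, and all 4 calls with the covariate were higher in diabetic libraries. The covariate differs between the groups itself. Shares of all genes called with it are not given here, so these counts cannot be set against the general rate.

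Of 9 genes known to depend on androgens in mouse kidney, the test called 7 lower at 3 months, 7 at 6 months, 6 at 3 weeks and 4 at 24 weeks, none higher, and 3 of the 9 also stand on the tubule list. Their sum was 461 to 1372 CPM in 3-month eNOS-/- db/db libraries against 4579 to 5417 CPM in controls. After 24 weeks of STZ it was 284 to 819 CPM in STZ libraries against 2438 to 4935 CPM in controls. The amino acid carrier Slc7a13 had a log2 fold change of -2.72 at 3 months and -3.70 at 6 months, and the kidney androgen-regulated protein Kap stood at -4.41 at 6 months and -4.68 at 24 weeks. Ddx3y, a gene of the Y chromosome, had 36.4 to 115 CPM over the TRAP libraries. The part of these genes' regulators in the members' changes was not tested.

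**Figure D5:**
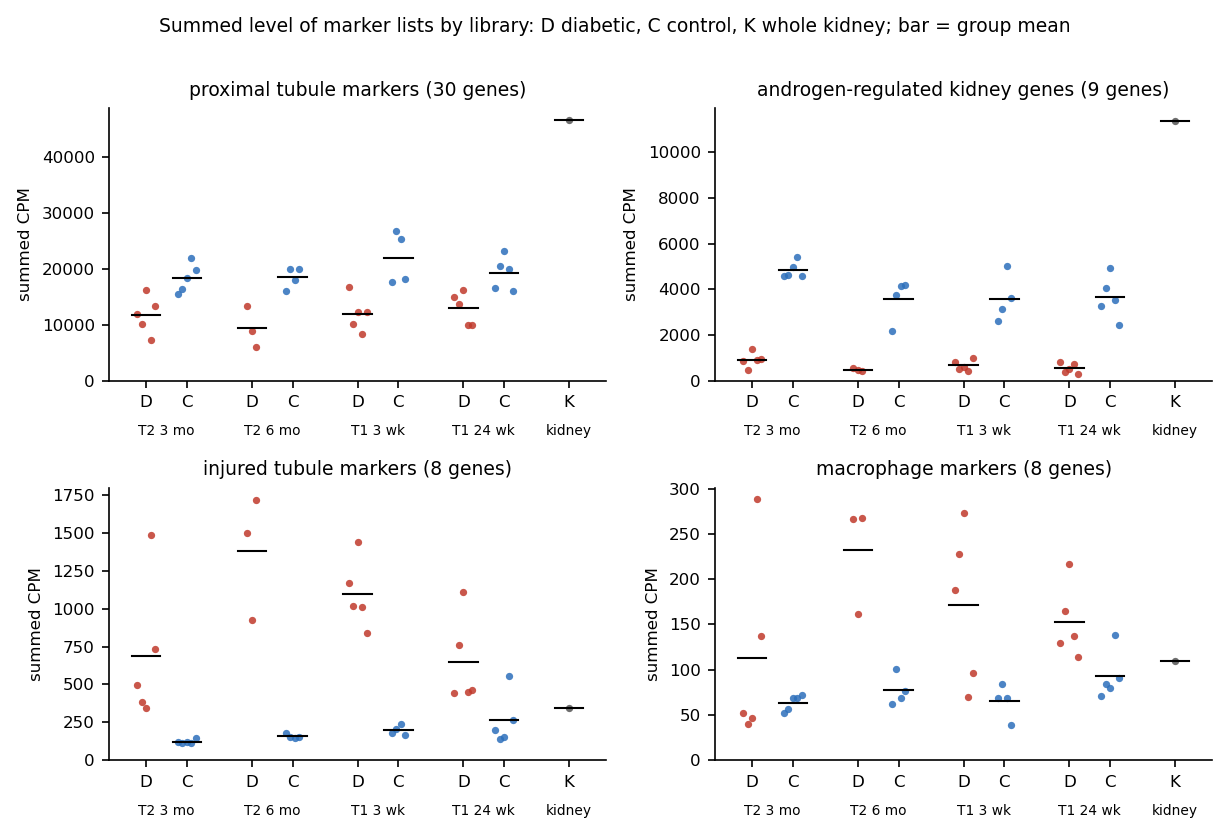
Summed CPM of 4 marker lists in each library, diabetic (D, red) left of control (C, blue), with the group mean as a bar and whole kidney (K) at the right. Androgen-regulated genes sum to no more than 1372 in every diabetic library and at least 2182 in every control library, and injured tubule markers are higher in diabetic libraries apart from an overlap at 24 weeks.

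Lists of carriers, regulators and enzymes outside the member families held calls in both directions. At 6 months 11.2% of all genes were called higher and 11.7% lower, so a few calls in a list at that time are near the share of all genes. Of 19 other organic solute carriers and pumps tested, 1, 3, 2 and 0 were lower and 1, 4, 1 and 0 higher. Among them the urate carrier Slc2a9 rose by 1.29 on the log2 scale at 6 months and 1.37 at 3 weeks, and the drug efflux pump Abcb1b by 1.37 at 3 months. Of 17 scaffold and regulator genes, 1, 1, 2 and 0 were lower, with the estrogen receptor Esr1 at -0.996 at 3 months and -1.72 at 3 weeks. At 6 months 2 were higher, the xenobiotic sensors Ahr (1.53) and Nr1i2 (1.53), and 1 each at 3 months (the prolactin receptor Prlr, 1.07) and 3 weeks (the antioxidant factor Nfe2l2, 0.69). Of 9 enzymes that supply or use up the carried metabolites, 0, 1, 0 and 0 were lower and 0, 1, 3 and 0 higher, with the urate-forming enzyme Xdh at 1.57 at 6 months and 1.94 at 3 weeks.

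Markers of the other cell types were called in part of the comparisons. At 6 months, where 11.2% of all genes were called higher and 11.7% lower, the endothelial and distal tubule counts are near those shares. Of 8 macrophage markers, 0, 5, 4 and 0 were called higher in the order of the comparisons, and of 8 mesangial and smooth muscle markers 2, 5, 2 and 0. Of 6 parietal epithelial markers, 2, 4, 3 and 1 were higher. Of 11 markers of the distal tubule and collecting duct, 0, 1, 1 and 1 were higher and 0, 2, 0 and 0 lower, and of 8 endothelial markers 0, 1, 1 and 0 were higher and 1, 1, 0 and 0 lower. Podocyte markers were called lower at 6 months, as given above, and in no other comparison. Their part in the members' changes was not tested.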

How the data were processed

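RNA bound to tagged podocyte ribosomes and total RNA of whole kidney were sequenced. Per the submitters' processing notes, cutadapt 1.16, STAR, FastQC and featureCounts 1.15.2 were used and the build mm9 is named. The coordinates in the deposited tables overlapped GENCODE mouse release 21 on GRCm38 for 99.981% of 31871 matched genes, so GRCm38 is used here. The deposited table holds raw counts per gene, and a second deposited table holds FPKM values that the authors made per gene length and library size. The sources used here do not say whether the counting used strand.

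Groups follow the labels. Counts were tested with edgeR 4.0.16 in R 4.3.3, with TMM scaling, its default low-count filter and quasi-likelihood fits in the robust setting. Each model was fitted on its own (17 and 19 libraries), differences between models in a fit of all 36, and p-values were adjusted over all genes tested at a threshold of 0.05. CPM are the deposited counts scaled to the library's total. TRAP and kidney were compared on CPM plus a pseudocount of 0.5, with exact Poisson intervals at 95% for the kidney library. The fits were tested on simulated data. Depth limits precision as given with the data. Alternatives were DESeq2 1.42.0, median-ratio scaling, other filters, limma 3.58.1 on log2 FPKM plus 0.1 or 1, a replicate block, a tubule marker covariate and left-out libraries.

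The members and lists were chosen with earlier results of these data known. Genes named are all members called in a comparison, the 8 with the highest FPKM, the ends of the TRAP to kidney ratio and, for other lists, the lowest p-values. The list of sex-linked transcripts is given by Ddx3y, and 1 listed gene was not in the count table. The values of 1 member are not reported here, though it stays in all counts. Protein sequences were not used here. Intervals cover counting error only.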

Additional observations from a re-analysis of the deposited data

Results flagged for a closer look

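A library far from the others of its group, by Dixon's criterion at 95%, was found in 6 of the 100 groups of values tested, where chance flags about 1 in 20. Slco1a1 had 5.62 CPM in diabetic library 4 of the type 2 model at 3 months, against 0.104 to 0.556 CPM in the other 4, and that library also had the highest summed macrophage, injured tubule, mesangial and parietal markers and the lowest summed proximal tubule markers of its group, whose part was not tested. Slco1a1 also had 3.94 CPM in diabetic library 5 of the STZ model at 3 weeks, against 0 to 0.527 CPM in the others. In control library 3 of that time it had 127.9 CPM, against 67.5 to 75.2 CPM. Slc22a26 had 14.1 CPM in control library 3 of the type 2 model at 6 months, against 6.99 to 8.00 CPM in the others. Slc17a1 had 172 CPM in control library 2 of the STZ model at 3 weeks, against 120 to 124 CPM. Slc22a3 had 0.0714 CPM, or 1 count, in control library 3 of that time and 0 in the others.

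The diabetic effect differed between the models, type 2 minus type 1 on the log2 scale, for 3 members in edgeR's test of the difference. The difference was -2.15 for Slc22a19 at the early times (adjusted p = 0.01923) and -4.22 at the late times (adjusted p = 0.0001136). It was -2.63 for Slc22a7 at the early times (adjusted p = 0.03626) and -3.49 at the late times (adjusted p = 0.04037). It was 1.53 for Slc22a8 at the early times (adjusted p = 0.03529).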

How the results depend on the processing

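Counts of members called stayed within 1.5 times of those reported under DESeq2, median-ratio scaling, other filters, limma on log2 FPKM and other sets of libraries in the fit, with these exceptions. At 24 weeks of STZ, where 5 were reported, DESeq2 called 10, limma on log2(FPKM + 1) called 8 and the fit of all 36 libraries 10. For the age of STZ controls, 1 member was called in place of 2 by limma on log2(FPKM + 0.1) and by the fit of 36. With no filter, 1 was called for the early and 1 for the late difference between models, in place of 3 and 2. With the tubule covariate 7 were called at 6 months, 8 at 3 weeks and 1 for the late difference, and Slc22a8 turned to 0.13 at 6 months. DESeq2 called more genes in all, with 1270 against 685 at 3 months, 1789 against 1058 at 3 weeks and 441 against 146 at 24 weeks. The causes were not tested.

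Leaving out each library in turn gave 13 to 17 members called at 3 months, 18 to 24 at 6 months, 12 to 18 at 3 weeks and 3 to 8 at 24 weeks. It gave 0 to 2 and 0 to 0 for the changes with time in the type 2 and STZ models, 0 to 0 and 1 to 2 for control age, 1 to 3 for each difference between models, and 0.481 to 0.519 for the median ratio of TRAP to kidney. Where a group of 3 loses 1 library, the fit lets the pair left vary like the other groups.

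Deviations of same-numbered libraries correlated weakly, at -0.099 to 0.205. Libraries correlated best with their own number in 2 of 5 pairs at 3 months, 0 of 3 at 6 months, 2 of 4 at 3 weeks and 1 of 5 at 24 weeks. So few pairs cannot exclude a shared batch. With the numbers as a replicate block, 15 members were called at 3 months, 19 at 6 months, 16 at 3 weeks and 3 at 24 weeks, and 1 for the early (Slc22a7) and 1 for the late (Slc22a19) difference between models. The early difference of Slc22a19 had an adjusted p of 0.0662 in this edgeR fit. No member was called for the changes with time under the block.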

Other observations

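The 57 members together took 0.194% ± 0.026 of all counts in 3-month eNOS-/- db/db libraries, against 0.294% ± 0.039 in their controls (SD, n = 5 each). They took 0.221% ± 0.037 against 0.261% ± 0.032 at 6 months (n = 3 and 4), 0.204% ± 0.044 against 0.270% ± 0.053 at 3 weeks (n = 5 and 4), 0.250% ± 0.051 against 0.292% ± 0.055 at 24 weeks (n = 5 each), and 0.533% in the kidney library. These shares were not tested.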
